A study of Homo sapiens with 12 samples.

Results

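The genes of sphingolipid and sulfatide metabolism were followed in Huh7 and HCCLM3, lines of human liver cancer cells, with and without knockdown of a circular RNA. The set held 37 genes, chosen by name as enzymes and regulators of the pathway, out of 23583 features in the gene table. That choice was made with earlier results of these data known. All 37 were found by symbol. A filter on low counts left 36 of them among the 16946 features that were tested, and DEGS2 was left out. The study measured RNA by sequencing in Huh7, a carcinoma line with many hepatocyte functions, and in HCCLM3, a carcinoma line kept as a model of metastasis. Each line received either a control siRNA (si-NC) or an siRNA against circASH2 (si-circASH2), and the labels name no further allele or treatment, and no dose or time. The 4 groups were Huh7 si-NC, Huh7 si-circASH2, HCCLM3 si-NC and HCCLM3 si-circASH2, with 3 libraries each. No label names separate cultures, so each p-value sets a difference only against the scatter of these libraries, and that scatter may be technical.

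Sphingolipids are lipids built on a long-chain amino alcohol. Their synthesis starts in the endoplasmic reticulum, where serine palmitoyltransferase joins serine and palmitoyl-CoA, and reduction, acylation and desaturation then give ceramide. Ceramide is the branch point from which sphingomyelin, glucosylceramide with its gangliosides, and galactosylceramide with its sulfated form sulfatide are made. Ceramidases release sphingosine, which sphingosine kinases turn into sphingosine 1-phosphate, a signalling lipid. In the liver, sphingolipids with very long acyl chains are made mainly by the ceramide synthase CERS2.

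Library totals lay between 29006781 and 30858895 counts, at which 3 counts in a library equal 0.0981 to 0.105 CPM (counts per library total, scaled by TMM factors). The summed level of 11 hepatocyte markers was 37261 to 37354 CPM in Huh7 si-NC and 34111 to 34824 CPM in Huh7 si-circASH2 libraries. In HCCLM3 the same sum was 236 to 244 CPM in si-NC and 276 to 277 CPM in si-circASH2 libraries, and SERPINA1 had at most 3 counts in each. HCCLM3 thus held few hepatocyte transcripts. Summed markers of other cell types also moved with the siRNA. In Huh7 the 4 epithelial markers went from 2927 to 3093 CPM in si-NC to 3611 to 3854 CPM in si-circASH2 libraries, the 7 fibroblast markers from 34.3 to 40.1 CPM to 56.7 to 57.7 CPM, and the 6 leukocyte markers from 383 to 419 CPM to 337 to 365 CPM. In HCCLM3 the fibroblast markers went from 35.6 to 37.9 CPM to 49.0 to 53.5 CPM, the leukocyte markers from 143 to 165 CPM to 171 to 208 CPM, and the 5 endothelial markers from 26.1 to 27.9 CPM to 19.97 to 22.1 CPM. These groups did not overlap, while the epithelial markers in HCCLM3 (5341 to 5506 and 5474 to 5600 CPM) and the endothelial markers in Huh7 (24.1 to 27.5 and 23.7 to 24.4 CPM) did. THY1, of the fibroblast list, and CD3E, of the leukocyte list, had 3 counts or fewer in each library. The part of these marker shifts in the results was not tested. A gene count does not measure the circle itself. Its host gene ASH2L changed by -0.19 ± 0.05 on the log2 scale in Huh7, with an adjusted p of 0.00304, and by -0.24 ± 0.05 in HCCLM3, with an adjusted p of 0.0014, both from edgeR.

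After si-circASH2 more of these genes fell than rose in both lines, while most did not pass the test. In Huh7 13 of 36 tested members fell (36.1%), 3 rose (8.33%) and 20 did not pass an adjusted p of 0.05 in edgeR's quasi-likelihood test, where 15.1% of all tested genes fell and 16.3% rose. In HCCLM3 11 fell (30.6%), 5 rose (13.9%) and 20 did not pass, where 15.5% of all genes fell and 15.1% rose. The median log2 fold change of the members was -0.06 in each line, beside 0.01 in Huh7 and 0.00 in HCCLM3 over all tested genes. UGT8, at 0 in every HCCLM3 library, was tested through Huh7 alone and is left out of the medians. The members had a median of 28.5 CPM and all tested genes one of 17.3 CPM, so their shares of calls are not those of genes at the same level. As the set was chosen with earlier results of these data known, its shares beside all genes are a description and no test. The value after ± is the SD of 3 libraries for a CPM or FPKM, and the model's standard error for a log2 fold change. Groups of 3 libraries can fail to overlap by chance, and the share of all genes that do so is not given. A lack of overlap therefore describes the libraries and is no test. In bulk RNA, fewer cells of a kind and less RNA per cell cannot be told apart.

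Falls that passed in both lines were found in 6 members (16.7%, against 5.71% of all tested genes), namely GAL3ST1, SGPP1, ACER3, DEGS1, UGCG and CERK. ASAH1 was the 1 member that rose in both (2.78%, against 5.64% of all). SPTSSA and SPTSSB passed in opposite directions (5.56%, against 3.46% of all). These shares, too, only describe a set chosen with earlier results known. The calls of GAL3ST1, SGPP1, ACER3, DEGS1 and UGCG in each line held under every alternative that was run, and those of CERK, whose changes were -0.11 and -0.12 on the log2 scale, did not.

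**Figure D1:**
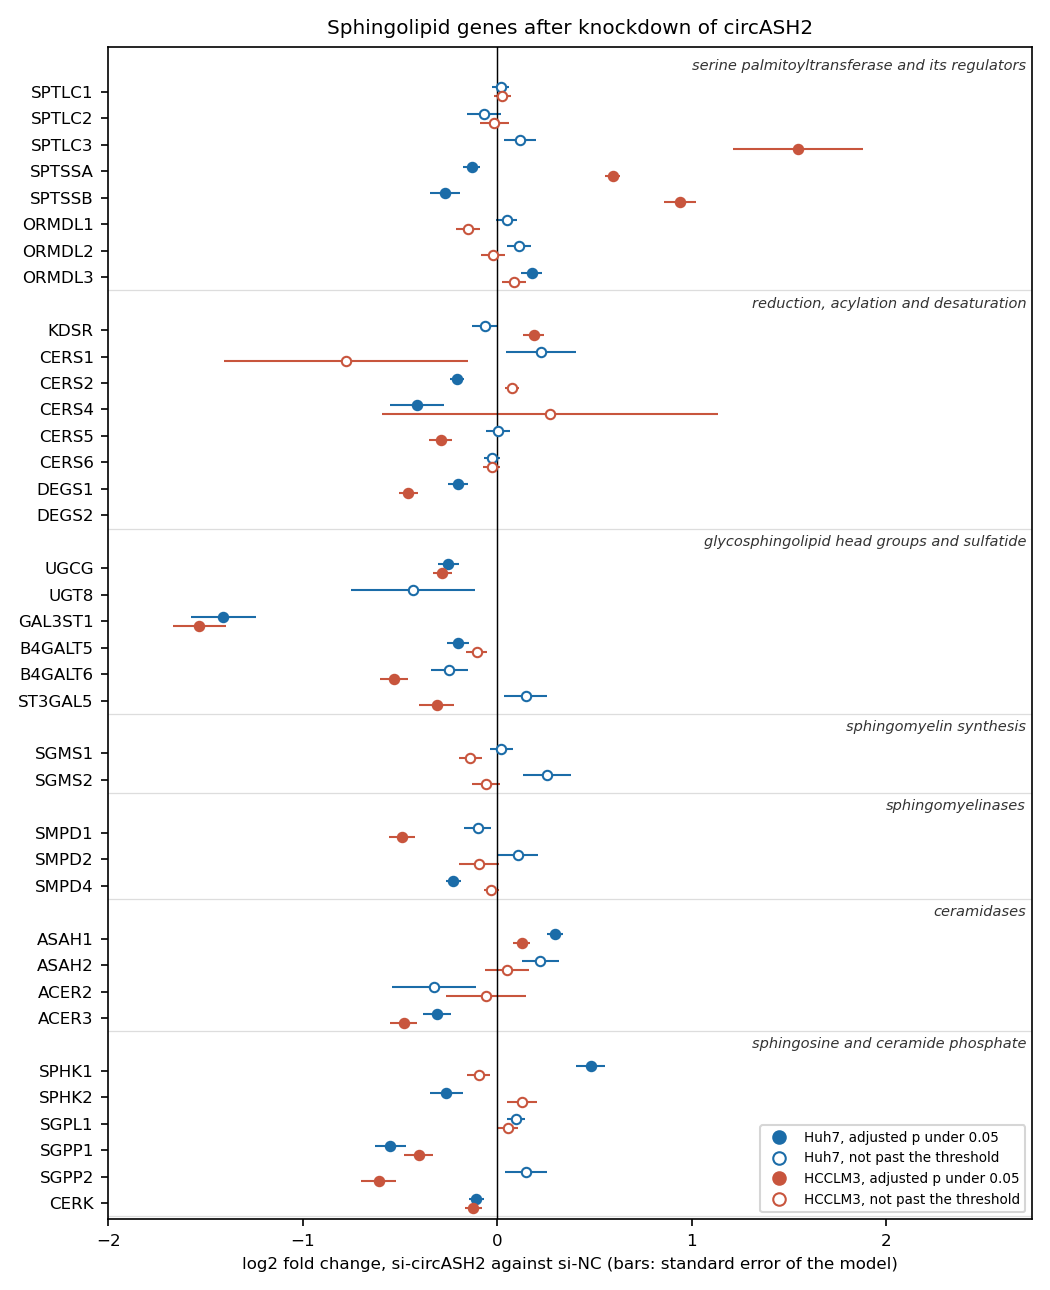
Log2 fold change of si-circASH2 against si-NC for the members in Huh7 (blue) and HCCLM3 (red), grouped by role, with the standard error as bars and filled points for an adjusted p under 0.05. GAL3ST1 lies near -1.41 and -1.53 in the lines, while SPTSSA and SPTSSB lie left of 0 in Huh7 and right of it in HCCLM3; DEGS2 was not tested and UGT8 has no counts in HCCLM3.

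The enzymes that build or modify the sugar head groups of sphingolipids held the largest fall of the set. They are called head-group enzymes here, and the sphingomyelin synthases are given apart. GAL3ST1, the sulfotransferase that turns galactosylceramide into sulfatide and also sulfates lactosylceramide, fell in both lines. The gene lies at chr22:30554635-30574587 on the minus strand (GRCh38). Its si-NC libraries of Huh7 had 6.397, 8.51 and 7.31 CPM and its si-circASH2 libraries 2.78, 1.82 and 3.77 CPM. In HCCLM3 the values were 21.8, 22.1 and 23.4 CPM in si-NC and 7.73, 7.93 and 7.62 CPM in si-circASH2 libraries. The groups did not overlap in either line, and the spread was wider among the Huh7 knockdown libraries. The log2 fold changes were -1.41 ± 0.17 (edgeR adjusted p = 1.42e-06) and -1.53 ± 0.14 (edgeR adjusted p = 3.71e-08), and their difference, -0.12 ± 0.22, did not pass (edgeR adjusted p = 0.785). UGT8, the galactosyltransferase that makes the galactosylceramide on which GAL3ST1 acts, had 1.35, 1.24 and 1.57 CPM in Huh7 si-NC and 0.982, 0.961 and 1.13 CPM in Huh7 si-circASH2 libraries. These Huh7 groups did not overlap, but the log2 fold change of -0.43 ± 0.32 did not pass (edgeR adjusted p = 0.342, but limma gave 0.0171 on FPKM over all genes above 0). No HCCLM3 library had a count of UGT8, which allows up to 3 counts over a group or 0.0338 CPM in si-NC.

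UGCG, which makes glucosylceramide, fell in both lines, with a difference between them that did not pass (-0.03 ± 0.07, edgeR adjusted p = 0.863). Its levels were 36.8, 32.5 and 34.8 CPM in Huh7 si-NC and 28.2, 29.3 and 29.9 CPM in si-circASH2 libraries, a change of -0.25 ± 0.05 (edgeR adjusted p = 0.000887). In HCCLM3 they were 108, 107 and 98.2 CPM and 84.7, 88.3 and 84.1 CPM, a change of -0.28 ± 0.05 (edgeR adjusted p = 6.41e-05). Neither pair of groups overlapped. The next step, synthesis of lactosylceramide, is carried out by B4GALT5 and B4GALT6. B4GALT6 fell in HCCLM3 from 35.9, 34.8 and 31.5 to 24.5, 23.4 and 22.8 CPM (-0.53 ± 0.07, edgeR adjusted p = 3.39e-06) with no overlap. In Huh7 it had a log2 fold change of -0.25 ± 0.10, which did not pass (edgeR adjusted p = 0.0576, and 0.0402 without si-NC replicate 3 or 0.0368 without si-circASH2 replicate 3). B4GALT5 fell in Huh7 by 0.20 log2 units from 54.2 ± 4.14 CPM (edgeR adjusted p = 0.0086, but 0.0671 when si-NC replicate 2 and 0.0665 when si-circASH2 replicate 2 was left out), and had -0.11 ± 0.05 in HCCLM3 (edgeR adjusted p = 0.134, 0.0412 with that line fitted alone).

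ST3GAL5, the sialyltransferase that makes the ganglioside GM3, had 29.6, 30.98 and 34.8 CPM in HCCLM3 si-NC and 24.8, 24.3 and 27.7 CPM in si-circASH2 libraries. The log2 fall of 0.31 passed (edgeR adjusted p = 0.0126). Its si-NC and si-circASH2 groups did not overlap. The call was lost without si-NC replicate 3 (0.0863) and without replicate 1 (0.0542) or 2 (0.0687) of si-circASH2, and also with limma on FPKM (0.0556 to 0.0864). In Huh7 the libraries of ST3GAL5 overlapped, at 8.005, 9.32 and 8.82 CPM in si-NC and 8.26, 11.6 and 9.01 CPM in si-circASH2 libraries (0.15 ± 0.11, edgeR adjusted p = 0.363). By role, 3 of 6 of these head-group genes fell in Huh7 and 4 of 6 in HCCLM3, beside 15.1% and 15.5% of all tested genes. None of the 6 rose in either line, where 16.3% and 15.1% of all genes rose, a share that amounts to about 1 gene in 6. UGT8 is among the 6 but, without a count in HCCLM3, could pass in neither direction there.

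The members' 3′ untranslated regions (UTRs) were searched for TTATACC and TATACCA, on the transcript strand of GENCODE 29 (GRCh38) alone. These letters were chosen because they were already known to be common among the genes lowered in these data, so their counts are a description and support nothing independently. The sequences overlap by all but 1 base of each, in TTATACCA. A copy lay in the 3′ UTR of at least 1 annotated coding transcript in 9 of 36 tested members (25%), against 1999 of 13986 tested genes with such a UTR (14.3%), with UTR lengths not matched. The members were UGT8, GAL3ST1, B4GALT6, UGCG, ST3GAL5, SPTLC2, SPTSSA, KDSR and ACER3. One window is shown for each of these members but ST3GAL5, 5′ to 3′ with the match in capitals, because 5 of the 6 head-group enzymes are among them while SPTSSA and KDSR, which rose in HCCLM3, carry a copy too.
GAL3ST1 (chr22:30554731-30554760, strand minus): tatttaactaaTTATACCAgtttttattaa
UGCG (chr9:111935284-111935312, strand plus): tgtctagaataTATACCAtgttttattat
B4GALT6 (chr18:31625187-31625215, strand minus): catgtaatcggTTATACCtttattggact
UGT8 (chr4:114677995-114678023, strand plus): aaacttattagTTATACCttttcacaatc
ACER3 (chr11:77020677-77020705, strand plus): ttgcatgtgaaTTATACCtttcttaatat
SPTLC2 (chr14:77510854-77510882, strand minus): cttttggcataTTATACCcaggatcagtt
SPTSSA (chr14:34434435-34434463, strand minus): tgtaatgcttaTATACCAtagagttttta
KDSR (chr18:63330536-63330565, strand minus): agacattatttTTATACCAcatgctaagga
The full TTATACCA stood in GAL3ST1, which fell most, and in KDSR, which did not pass in Huh7 (-0.06 ± 0.06) and rose in HCCLM3 (0.19 ± 0.06). Of the 9 members with a copy 4 fell in Huh7, and 5 fell and 2 rose in HCCLM3. Of the 27 without one 9 fell and 3 rose in Huh7, and 6 fell and 3 rose in HCCLM3. Over all genes 30.6% of those with a copy and 15.1% of those without fell in Huh7, and 30.8% and 14.9% in HCCLM3. A match describes the letters of a transcript and is not by itself a site.

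Serine palmitoyltransferase, which starts the pathway, showed opposite changes of its small subunits in the lines. SPTSSA and SPTSSB are short membrane proteins that activate the enzyme and set which acyl-CoA it uses. SPTSSA rose in HCCLM3 from 89.5, 90.02 and 87.4 CPM in si-NC to 136, 132 and 135 CPM in si-circASH2 libraries (0.59 ± 0.04, edgeR adjusted p = 6.81e-11). SPTSSB rose there from 19.7, 15.8 and 19.8 to 37.4, 32.7 and 35.96 CPM (0.94 ± 0.08, edgeR adjusted p = 5.56e-09). For both genes each HCCLM3 knockdown library lay above each control library. In Huh7 SPTSSA had 55.2, 54.1 and 55.3 CPM in si-NC and 47.8, 49.4 and 53.2 CPM in si-circASH2 libraries, a log2 fall of 0.13 (edgeR adjusted p = 0.0222). SPTSSB had 37.3, 35.7 and 31.7 CPM and 28.8, 30.2 and 27.96 CPM there, a fall of 0.27 (edgeR adjusted p = 0.01). These Huh7 groups did not overlap either, but the falls were small and their calls did not hold throughout. That of SPTSSA was lost without si-NC replicate 1 (0.0651) or 3 (0.063) and without si-circASH2 replicate 1 (0.12) or 2 (0.0674), and that of SPTSSB without si-NC replicate 1 (0.0617) and with limma on FPKM (0.0766 to 0.112). The difference between the lines was 0.72 ± 0.06 (edgeR adjusted p = 4.53e-09) for SPTSSA and 1.21 ± 0.11 (edgeR adjusted p = 5.35e-08) for SPTSSB on the log2 scale, and it passed under every alternative.

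Of the large subunits only SPTLC3 passed, and only in HCCLM3. SPTLC1, the subunit common to all forms of the enzyme, had log2 fold changes of 0.02 ± 0.04 in Huh7 and 0.03 ± 0.04 in HCCLM3, and the catalytic subunit SPTLC2 had -0.07 ± 0.09 and -0.01 ± 0.07, none of which passed. Their edgeR adjusted p were 0.813 and 0.707 for SPTLC1 and 0.614 and 0.945 for SPTLC2. SPTLC3, the alternative catalytic subunit, had few reads in HCCLM3, with counts of 4, 7 and 17 in si-NC and 26, 21 and 36 in si-circASH2 libraries. All knockdown libraries were above all controls, and the log2 fold change was 1.55 ± 0.34 (edgeR adjusted p = 0.00119), a call not held by limma on log2(FPKM + 1) (0.0998). In Huh7 SPTLC3 stood at 44.8 ± 3.29 CPM in si-NC and 48.6 ± 1.48 CPM in si-circASH2 libraries and did not pass (0.12 ± 0.08, edgeR adjusted p = 0.319).

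The genes ORMDL1, ORMDL2 and ORMDL3 encode the proteins that hold serine palmitoyltransferase back when ceramide is plentiful. ORMDL3 rose in Huh7 from 56.1, 62.4 and 60.8 CPM to 67.7, 64.5 and 70.5 CPM (0.18 ± 0.05, edgeR adjusted p = 0.0134). The groups did not overlap, but the call was lost without si-NC replicate 1 (0.0959) or si-circASH2 replicate 3 (0.0811) and with limma on FPKM (0.0704 to 0.0922). The other values of the 3 genes lay between -0.15 and 0.11 on the log2 scale and did not pass. The lowest of them, that of ORMDL1 in HCCLM3 (edgeR adjusted p = 0.0674), passed without si-NC replicate 2 (0.0133). Over the genes of this first step, 1 of 8 rose (12.5%) and 2 fell (25%) in Huh7, which is near the 16.3% and 15.1% of all genes in so small a set. In HCCLM3 3 of 8 rose (37.5%) and none fell, beside 15.1% and 15.5% of all genes.

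Downstream of that step the desaturase DEGS1, which introduces the double bond of ceramide, fell in both lines and more in HCCLM3. It had 50.5, 49.99 and 49.4 CPM in Huh7 si-NC and 40.8, 41.95 and 47.5 CPM in si-circASH2 libraries (-0.20 ± 0.05, edgeR adjusted p = 0.00444). In HCCLM3 it had 104, 109.7 and 105 CPM and 81.2, 74.9 and 76.1 CPM (-0.46 ± 0.05, edgeR adjusted p = 1.21e-07), and neither pair of groups overlapped. The difference of -0.26 ± 0.07 (edgeR adjusted p = 0.0119) was lost without HCCLM3 si-circASH2 replicate 2 (0.0511) and with limma on FPKM (0.0708 to 0.097). DEGS2, a desaturase that can also hydroxylate, had between 0 and 4 counts in each library and was not tested. KDSR, the reductase of the second step, rose in HCCLM3 from 48.1, 48.4 and 47.7 to 52.02, 54.7 and 57.5 CPM (0.19 ± 0.06, edgeR adjusted p = 0.0122), a call lost without si-circASH2 replicate 3 (0.0787) and with limma on FPKM (0.139 to 0.184). In Huh7 KDSR overlapped between the groups, at 19.7, 18.3 and 19.5 and 17.2, 18.03 and 19.7 CPM (-0.06 ± 0.06, edgeR adjusted p = 0.502).

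Ceramide synthases differ in the acyl chains they add. CERS2, the synthase of very long chains, fell in Huh7 from 304, 287 and 284 to 257, 259 and 242 CPM (-0.21 ± 0.04, edgeR adjusted p = 9.65e-05). In HCCLM3 its libraries did not overlap in the other direction, at 867, 880.3 and 906 and 922, 912 and 965 CPM, but the value of 0.08 ± 0.04 did not pass (edgeR adjusted p = 0.105, 0.0333 with that line fitted alone). CERS5, which makes ceramides with palmitoyl chains, fell in HCCLM3 from 51.2, 52.3 and 50.9 to 44.2, 40.7 and 41.3 CPM (-0.29 ± 0.06, edgeR adjusted p = 0.000451), and had 32.3, 30.9 and 30.5 and 30.4, 34.6 and 28.9 CPM in Huh7, where the groups overlapped (0.00 ± 0.06). CERS4 fell in Huh7 from 27.7, 29.2 and 25.2 to 23.4, 19.7 and 18.5 CPM with no overlap (-0.41 ± 0.14, edgeR adjusted p = 0.0336). That call was lost without si-NC replicate 1 (0.0955) or 2 (0.133), without si-circASH2 replicate 2 (0.118) or 3 (0.13), and with limma on log2(FPKM + 0.1) (0.217). CERS6 had -0.03 ± 0.04 in Huh7 and -0.03 ± 0.04 in HCCLM3.

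CERS1 shares most of its annotated exons with the growth factor gene GDF1 on the same strand (2517 of 3753 exonic bases), so reads of the genes cannot be told apart over that stretch. In Huh7 CERS1 had counts of 328, 257 and 309 in si-NC and 359, 337 and 332 in si-circASH2 libraries, and GDF1 had 45, 93 and 86 and then 7, 15 and 10. The sums of the counts were 373, 350 and 395 in si-NC and 366, 352 and 342 in si-circASH2 libraries and overlapped. CERS1 alone had 0.22 ± 0.18 (edgeR adjusted p = 0.391), with groups that did not overlap, and GDF1 fell by 2.78 (edgeR adjusted p = 1.9e-05). In HCCLM3 CERS1 had counts of 0, 10 and 9 and 3, 3 and 5, and it passed, as a fall, when si-NC replicate 1 was left out (0.04). On opposite strands CERS2 overlaps AL590133.2 by 19.2% and SETDB1 by 11.6% of its exonic bases, and SMPD4 overlaps MZT2B by 13.2%. SPHK2 overlaps DBP by 14.0%, AC022154.1 by 11.7% and RPL18 by 5.23% of its exonic bases, also on the other strand. SMPD2, ORMDL2 and CERS6 also overlap a gene on the other strand, by 24.9%, 41.2% and 38.9% of their exonic bases. Whether the counting used strand is not given in the sources used here, so values of these genes are uncertain.

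The sphingomyelin synthases passed the test in neither line. SGMS1, the synthase of the Golgi, had log2 fold changes of 0.02 ± 0.06 and -0.14 ± 0.06 in Huh7 and HCCLM3, and SGMS2, which also acts at the plasma membrane, had 0.26 ± 0.12 and -0.06 ± 0.07. The Huh7 value of SGMS2 (edgeR adjusted p = 0.122) passed without si-NC replicate 1 (0.0213), and that of SGMS1 in HCCLM3 (edgeR adjusted p = 0.0853) when limma was run on FPKM with every gene above 0 (0.0488). Sphingomyelinases, which turn sphingomyelin back into ceramide, each fell in 1 line or none. SMPD1, the acid sphingomyelinase of the lysosome, fell in HCCLM3 from 39.1, 37 and 36.99 to 26.6, 25.6 and 28.5 CPM with no overlap (-0.49 ± 0.07, edgeR adjusted p = 4.43e-06). Its Huh7 libraries overlapped, at 25.5, 24.2 and 21.1 and 22.8, 21.8 and 21.5 CPM (-0.10 ± 0.07, edgeR adjusted p = 0.298). SMPD4, a neutral sphingomyelinase, fell in Huh7 from 164, 167 and 162 to 146, 137 and 138 CPM (-0.23 ± 0.04, edgeR adjusted p = 7.32e-05) and overlapped between the HCCLM3 groups, at 116, 119 and 126 and 119, 115 and 119 CPM (-0.03 ± 0.04). SMPD2, another neutral sphingomyelinase, had 0.11 ± 0.10 and -0.10 ± 0.10.

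The ceramidases moved in different directions. ASAH1, the acid ceramidase of the lysosome, rose in Huh7 from 154, 153 and 144 to 175, 199 and 179 CPM (0.30 ± 0.04, edgeR adjusted p = 9.82e-06). In HCCLM3 it had 171, 164 and 168 and 183, 185 and 181 CPM with no overlap (0.13 ± 0.04, edgeR adjusted p = 0.0296). The HCCLM3 call was lost without any 1 of 5 of the 6 libraries, the exception being si-NC replicate 1 (edgeR adjusted p between 0.0574 and 0.12), and with limma on FPKM (0.06 to 0.0857). ACER3, the alkaline ceramidase that prefers unsaturated long-chain ceramides, fell in Huh7 from 26.7, 25.2 and 24.2 to 20.4, 20.9 and 20.1 CPM (-0.31 ± 0.07, edgeR adjusted p = 0.00137). In HCCLM3 it fell from 26.3, 25.6 and 23.5 to 19.6, 17.8 and 16.6 CPM (-0.48 ± 0.07, edgeR adjusted p = 1.25e-05), again with no overlap. ACER2, a Golgi ceramidase with at most 3.59 CPM in a library, did not pass (-0.33 ± 0.22 and -0.06 ± 0.21). The neutral ceramidase ASAH2 has a near-identical partial copy, ASAH2B, so its values are uncertain. They were 0.22 ± 0.09 in Huh7 (edgeR adjusted p = 0.0784, 0.0431 with that line fitted alone) and 0.05 ± 0.11 in HCCLM3.

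Among the genes of sphingosine 1-phosphate the phosphatase SGPP1, which turns it back into sphingosine, fell in both lines. It had 21.1, 19 and 19.9 CPM in Huh7 si-NC and 12.6, 13.2 and 15.2 CPM in si-circASH2 libraries (-0.55 ± 0.08, edgeR adjusted p = 9.79e-06). In HCCLM3 it had 29.3, 27.9 and 27.1 and 23.1, 19.7 and 20.95 CPM (-0.40 ± 0.08, edgeR adjusted p = 0.000197). Its paralog SGPP2 fell in HCCLM3 from 15.6, 17.7 and 17.1 to 10.6, 10.98 and 11.5 CPM (-0.61 ± 0.09, edgeR adjusted p = 1.18e-05). In Huh7 SGPP2 had 4.396, 4.61 and 4.296 and 4.74, 5.14 and 4.87 CPM, groups that did not overlap in the upward direction but whose 0.15 ± 0.11 did not pass (edgeR adjusted p = 0.323). The kinase SPHK1 rose in Huh7 from 16.3, 18.8 and 19.6 to 28.7, 23.5 and 24.3 CPM (0.48 ± 0.07, edgeR adjusted p = 3.45e-05). In HCCLM3, where it was several times higher, SPHK1 overlapped between the groups at 109.6, 109 and 103 and 98.8, 97.3 and 104 CPM (-0.10 ± 0.06, edgeR adjusted p = 0.248).

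The second kinase, SPHK2, had 14.5, 15.3 and 12.3 CPM in Huh7 si-NC and 11.8, 12.5 and 10.7 CPM in si-circASH2 libraries. These groups overlapped, and the call of a log2 fall of 0.26 (edgeR adjusted p = 0.0195) was lost without si-NC replicate 1 (0.0721) or 2 (0.123) or si-circASH2 replicate 3 (0.11). In HCCLM3 its libraries had 20.7, 21.3 and 20.6 and 22.6, 22.5 and 23.2 CPM (0.13 ± 0.08, edgeR adjusted p = 0.242), groups that did not overlap although the value did not pass. SGPL1, the lyase that breaks sphingosine 1-phosphate down for good, had 0.10 ± 0.04 in Huh7 and 0.06 ± 0.05 in HCCLM3 and passed in neither (edgeR adjusted p of 0.106 and 0.468). CERK, which phosphorylates ceramide, fell by 0.11 in Huh7 and by 0.12 in HCCLM3, with edgeR adjusted p of 0.0485 and 0.038. Leaving out 1 library ended its Huh7 call for each library but si-circASH2 replicate 2 (0.0564 to 0.168) and its HCCLM3 call for each but si-circASH2 replicate 2 (0.0518 to 0.17).

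**Figure D2:**
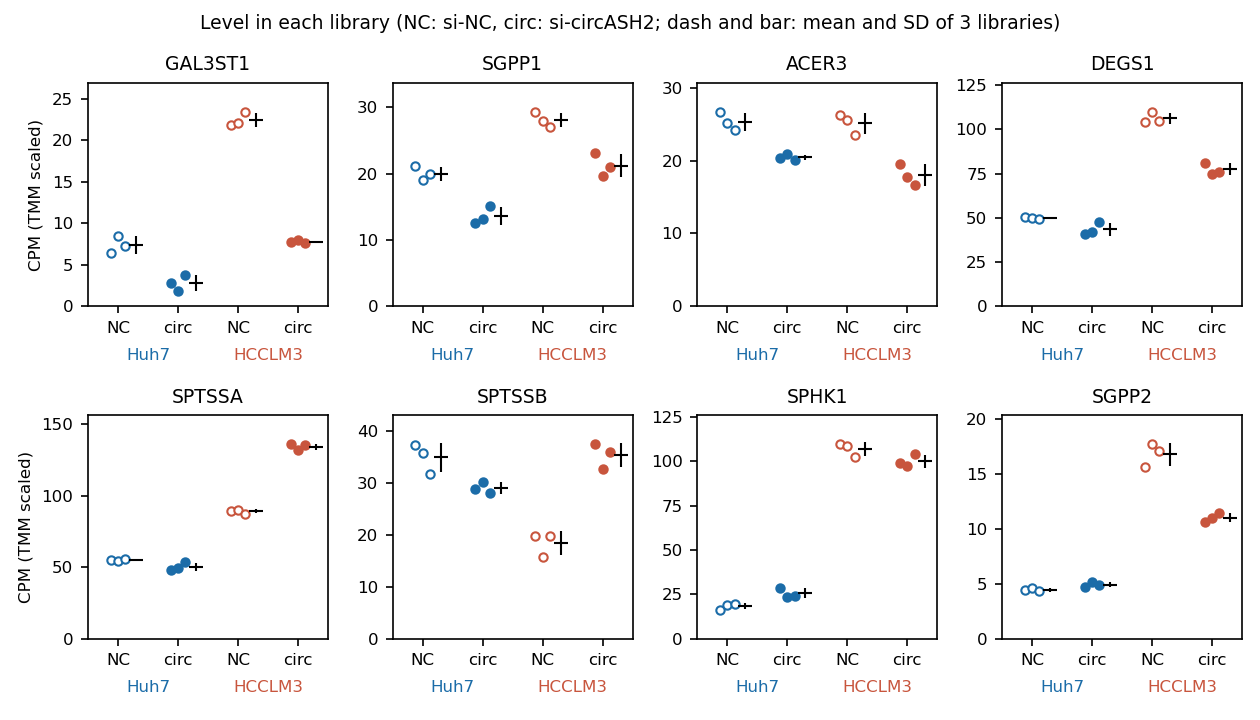
CPM (TMM scaled, axes from 0) of 8 members in each of the 12 libraries, open points for si-NC and filled points for si-circASH2, with the mean and SD of 3 libraries as a dash and bar. GAL3ST1, SGPP1, ACER3 and DEGS1 are lower after si-circASH2 in both lines, SPTSSA and SPTSSB are higher in HCCLM3, SPHK1 is higher in Huh7 and SGPP2 lower in HCCLM3.

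Whether the lines responded differently was tested as the difference of their log2 fold changes, HCCLM3 minus Huh7. It passed above 0 for 7 members (19.4%) and below 0 for 7 (19.4%), against 9.6% and 11.3% of all tested genes. Besides SPTSSA and SPTSSB, those above 0 were SPTLC3 (1.43 ± 0.35, edgeR adjusted p = 0.00479), SPHK2 (0.39 ± 0.11, edgeR adjusted p = 0.0169), CERS2 (0.28 ± 0.05, edgeR adjusted p = 0.000215), KDSR (0.25 ± 0.08, edgeR adjusted p = 0.0377) and SMPD4 (0.20 ± 0.06, edgeR adjusted p = 0.0124). Those below 0 were SGPP2 (-0.76 ± 0.14, edgeR adjusted p = 0.000318), SPHK1 (-0.58 ± 0.10, edgeR adjusted p = 0.000138), ST3GAL5 (-0.46 ± 0.15, edgeR adjusted p = 0.028), SMPD1 (-0.39 ± 0.10, edgeR adjusted p = 0.00524), CERS5 (-0.29 ± 0.08, edgeR adjusted p = 0.0148), DEGS1, and ASAH1 (-0.17 ± 0.06, edgeR adjusted p = 0.049). For SGPP2 the call in a single line was the fall in HCCLM3, and for SPHK1 the rise in Huh7. The differences of SPTSSA, SPTSSB, CERS2, SGPP2, SPHK1 and SMPD1 passed under every alternative, and the other calls were lost under at least 1, as given with the effects of the processing.

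**Figure D3:**
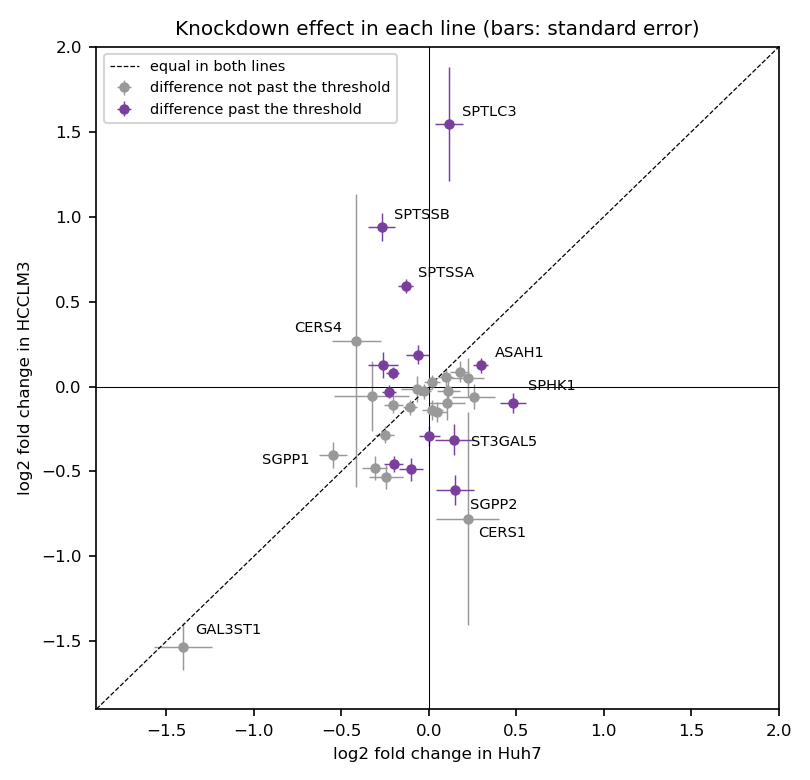
Log2 fold change in HCCLM3 against that in Huh7 for 35 members with counts in both lines, with standard errors as bars, purple where the difference between the lines passed an adjusted p of 0.05 and a dashed line of equal change. GAL3ST1 lies on the line at the lower left, SPTLC3, SPTSSA and SPTSSB lie far above it, and SGPP2 and SPHK1 below it.

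The control libraries of the lines already differed in most of the pathway. At baseline 20 of 36 members (55.6%) were higher in HCCLM3 si-NC than in Huh7 si-NC and 12 (33.3%) lower, where 41.6% of all tested genes were higher and 43.6% lower. The median difference was 0.40 on the log2 scale over the members, with UGT8 at its bound, and -0.04 over all genes. This comparison uses the same si-NC libraries as the knockdown comparisons, so their values are not independent. SGMS2 was higher by 3.60 ± 0.10 on the log2 scale, from 4.66, 3.94 and 3.08 CPM in Huh7 to 45.9, 48.1 and 48.04 CPM in HCCLM3. SPHK1 (2.55 ± 0.07), B4GALT6 (2.44 ± 0.08), SGPP2 (1.92 ± 0.10) and ST3GAL5 (1.87 ± 0.10) followed, with edgeR adjusted p of at most 1.26e-13 among these 5. All of the head-group enzymes but UGT8 were higher in HCCLM3, GAL3ST1 among them (1.60 ± 0.14, edgeR adjusted p = 7.99e-10).

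Of the 5 members that were lowest in HCCLM3 relative to Huh7, all but SGPL1 had few or no counts there. UGT8 had 1.38 ± 0.173 CPM in Huh7 and no count in HCCLM3, at least 41.0-fold lower against 3 counts over the group. CERS4 had 27.3 ± 2.02 CPM in Huh7 and counts of 0, 6 and 3 in HCCLM3 (-8.02 ± 0.30, edgeR adjusted p = 1.95e-13), and CERS1 9.83 ± 1.12 CPM and counts of 0, 10 and 9 (-5.49 ± 0.30, edgeR adjusted p = 5.86e-13). SPTLC3 went from 41.3, 45.4 and 47.8 CPM in Huh7 to 0.135, 0.245 and 0.556 CPM in HCCLM3 (-7.13 ± 0.17, edgeR adjusted p = 2.17e-20). SGPL1 went from 77.4, 81.3 and 79.8 to 26.4, 28.5 and 28.03 CPM (-1.52 ± 0.05, edgeR adjusted p = 3.29e-19). HCCLM3 thus had more RNA of SPHK1, a kinase that makes sphingosine 1-phosphate, and less of SGPL1, the lyase that breaks it down. The phosphatases that turn it back into sphingosine were higher there as well, SGPP1 by 0.49 ± 0.08 and SGPP2 by 1.92 ± 0.10 on the log2 scale. The lipid itself was not measured.

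Levels of different genes can be compared per length, from the deposited FPKM (fragments per kilobase, scaled to the library). The catalytic subunit of serine palmitoyltransferase with the larger FPKM differed between the lines, while SPTLC2 in HCCLM3 stayed below the level of SPTLC3 in Huh7. In Huh7 si-NC SPTLC3 stood at 6.93 ± 0.503 FPKM and SPTLC2 at 0.871 ± 0.0397 FPKM, so that SPTLC3 made up 88.8% ± 0.373 of their sum. In HCCLM3 si-NC SPTLC2 stood at 2.29 ± 0.0461 FPKM and SPTLC3 at 0.0415 ± 0.0318 FPKM, and the share of SPTLC3 was 1.77% ± 1.34 in si-NC and 6.13% ± 1.75 in si-circASH2 libraries. Its rise after knockdown thus left SPTLC2 as nearly all of the catalytic FPKM in HCCLM3.

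CERS2 led the ceramide synthases in each group. It had 104 ± 4.85 FPKM in Huh7 si-NC and 313 ± 7.62 FPKM in HCCLM3 si-NC, or 66.5% ± 0.383 and 90.4% ± 0.323 of the FPKM of the 5 synthases in the set. The order in Huh7 si-NC was CERS2, CERS6 (20.8 ± 0.309 FPKM), CERS4 (14.5 ± 0.694), CERS5 (12.7 ± 0.658) and CERS1 (4.09 ± 0.688). In HCCLM3 si-NC CERS5 (21.3 ± 0.424 FPKM) came before CERS6 (12 ± 0.333 FPKM), and CERS1 and CERS4 stood at most at 0.133 and 0.0971 FPKM in a library. Neighbours in both orders lay apart by more than their SD, except CERS1 and CERS4 in HCCLM3.

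Other paralog pairs shifted as well. SGMS1 made up 92.1% ± 1.86 of sphingomyelin synthase FPKM in Huh7 si-NC and 50.5% ± 1.21 in HCCLM3 si-NC, where the paralogs were level. SPHK1 made up 62.7% ± 4.94 of sphingosine kinase FPKM in Huh7 si-NC, 73.9% ± 2.15 in Huh7 si-circASH2 and 86.7% ± 0.148 in HCCLM3 si-NC. SPTSSA was the larger of the small subunits throughout, with 62.2% ± 1.99 of their FPKM in Huh7 si-NC and 83.4% ± 1.95 in HCCLM3 si-NC. Among the ceramidases ASAH1 held between 89.8% and 94.2% of the FPKM in the 4 groups.

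**Figure D4:**
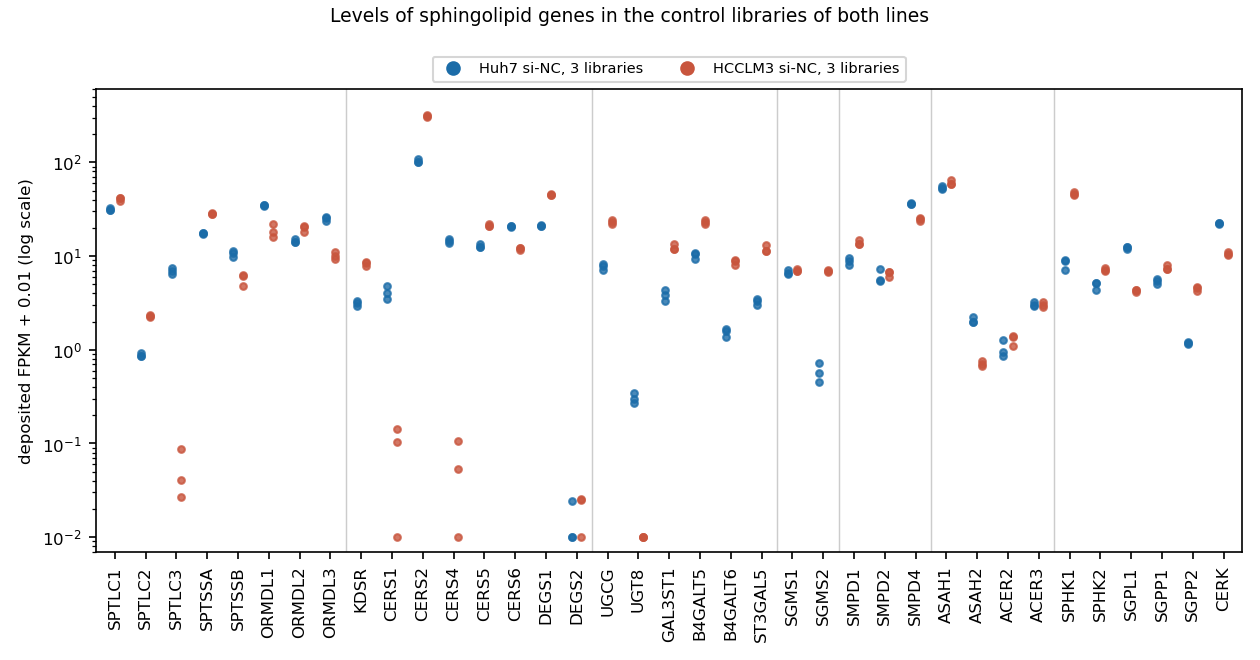
Deposited FPKM plus 0.01 (log scale) of the 37 members in the 3 si-NC libraries of Huh7 (blue) and of HCCLM3 (red), in order of role, with vertical lines between roles. CERS2 is the highest member in both lines, SPTLC3, CERS1, CERS4 and UGT8 are near or at 0 in HCCLM3, and SGMS2 and SPHK1 are higher in HCCLM3.

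Further genes of the pathway, outside the 37, were described from a list of 61 that cover lysosomal breakdown, gangliosides, lipid transfer, transport and sphingosine 1-phosphate receptors. Of these 60 were in the table and 50 were tested. In Huh7 9 fell (18%) and 8 rose (16%), near the 15.1% and 16.3% of all tested genes, and 33 did not pass (median log2 fold change 0.04). In HCCLM3 16 fell (32%, beside 15.5% of all genes), 7 rose (14%, beside 15.1%) and 27 did not pass (median -0.04). Among the 6 with the smallest p in either knockdown, 5 are described, each with an edgeR adjusted p of at most 2.8e-05 where a change is stated. ALDH3A2, the dehydrogenase that oxidises the aldehyde released by SGPL1, fell by 0.60 in Huh7 and by 0.34 in HCCLM3. ABCC1, an exporter that carries sphingosine 1-phosphate among others, fell by 0.30 and by 0.36. GLA, a lysosomal galactosidase of globosides, fell in HCCLM3 by 0.40 and had 0.02 ± 0.04 in Huh7. ELOVL1, the elongase that supplies very long acyl chains, fell in HCCLM3 by 0.42 and had 0.05 ± 0.04 in Huh7, and NSMAF, an adaptor of neutral sphingomyelinase, rose in HCCLM3 by 0.35 ± 0.04 and had -0.01 ± 0.05 in Huh7. The differences between the lines passed for GLA, ELOVL1, NSMAF and ALDH3A2 (edgeR adjusted p of at most 0.000982) and not for ABCC1 (0.584).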

How the data were processed

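The authors deposited a table of raw read counts per gene and a table of FPKM values for the same 12 libraries. Per the labels' protocols, RNA was prepared with a SMARTER mRNA-Seq kit. The submitters' processing notes list a human and mouse genome builds without saying which was used, and neither the aligner nor the counting tool is stated there or in the labels. How the authors computed FPKM, including the gene lengths, is likewise not given, and depth was taken from the deposited counts.

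Counts were analysed in R 4.3.3 with edgeR 4.0.16 (filterByExpr with a minimum count of 10, TMM factors, robust quasi-likelihood fit). The 12 libraries entered one model of 4 groups with 8 residual degrees of freedom, and p-values were adjusted by Benjamini-Hochberg over all 16946 tested genes. The common biological coefficient of variation was 5.65%. The script was tested on simulated data. Alternatives used limma 3.58.1 on log2(FPKM + 1), DESeq2 1.42.0, other scalings and filters, a replicate block, each line alone, and leaving out each library. Library values were given for members past the threshold with a log2 change of at least 0.3 in a knockdown, for those whose change differed between the lines, and for the 5 largest baseline differences in each direction. A few smaller changes were named after their values were seen. Gene positions and UTRs came from GENCODE 29. A gene and the sequence windows of a member are not reported here. The members and lists were chosen with earlier results of these data known.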

Additional observations from a re-analysis of the deposited data

Results flagged for a closer look

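The response to si-circASH2 differed between the lines for 14 members, by the edgeR test of the difference of their log2 fold changes (HCCLM3 minus Huh7). The difference was positive at 1.43 for SPTLC3, 1.21 for SPTSSB, 0.72 for SPTSSA, 0.39 for SPHK2, 0.28 for CERS2, 0.25 for KDSR and 0.20 for SMPD4. It was negative at -0.76 for SGPP2, -0.58 for SPHK1, -0.46 for ST3GAL5, -0.39 for SMPD1, -0.29 for CERS5, -0.26 for DEGS1 and -0.17 for ASAH1. Only SPTSSA and SPTSSB passed in both lines with opposite signs. The differences of SPTSSA, SPTSSB, CERS2, SGPP2, SPHK1 and SMPD1 alone passed under every alternative. Each difference uses the same libraries as the 2 knockdown comparisons. What sets these values apart was not tested.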

How the results depend on the processing

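Each member was refitted under the alternatives. Of 2445 values 2323 kept their direction and their side of the threshold, 104 lost a call, 18 gained one, and none with a call changed sign, while 48 without a call did. In HCCLM3 the 5 members that rose became 2 with limma on log2(FPKM + 1), 3 with log2(FPKM + 0.1) and 2 with all genes above 0. These 3 settings also took the 1 member higher in both lines to 0 and the 2 with opposite signs to 1. The 7 lower differences became 4 with log2(FPKM + 0.1). The cause was not tested. Leaving out 1 library each gave 8 to 12 members lower in Huh7 (main value 13, and 8 without si-NC replicate 1), and 3 to 5 higher in HCCLM3 (3 without si-circASH2 replicate 3). It gave 3 to 7 lower differences between the lines, with 4 without Huh7 si-circASH2 replicate 2 and 3 without HCCLM3 si-circASH2 replicate 2. Calls over all tested genes fell in these fits too. They went from 5314 to between 4453 and 4822 in Huh7, and from 5182 to between 4281 and 4435 in HCCLM3. For the differences they went from 3538 to between 3047 and 3347. Differences lost in at least 1 setting were those of SPTLC3, KDSR, CERS5, DEGS1, ST3GAL5, SMPD4, ASAH1 and SPHK2. That of ASAH1 was lost without any 1 HCCLM3 library (edgeR adjusted p of 0.0516 to 0.106). That of KDSR was lost without any 1 HCCLM3 si-NC library (edgeR adjusted p of 0.0562 to 0.0738). Both were also lost without some Huh7 libraries and with limma on FPKM (0.372 to 0.435 for ASAH1, 0.154 to 0.187 for KDSR). The difference of SMPD4 was lost only without HCCLM3 si-NC replicate 1 (edgeR adjusted p = 0.0541). The difference of SPTLC3 was 0.04 with limma on log2(FPKM + 1) and 0.70 with log2(FPKM + 0.1), against 1.43. Its HCCLM3 means, 0.0415 FPKM in si-NC and 0.149 FPKM in si-circASH2 libraries, lay below the offset of 1. Differences of CERS1, CERS4, B4GALT6, SGMS2 and ORMDL1 were gained in at least 1 setting. That of CERS4 was gained only with limma on log2(FPKM + 1). Its HCCLM3 means also lay below that offset, at 0.0470 FPKM in si-NC and 0.0541 FPKM in si-circASH2 libraries. At this depth up to 3 counts over a group cannot be told from the 0 of UGT8 in HCCLM3.

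Replicate numbers are shared by the groups. Same-numbered libraries of a line correlated in their deviations between -0.0341 and 0.0408, and different-numbered ones between -0.073 and 0.0594. No pairing by number was seen in these values, but no label says whether a number marks a shared culture or batch. The fit with a replicate block is given once. It left 3 members higher and 13 lower in Huh7, 5 and 11 in HCCLM3, and moved all genes past the threshold from 5314 to 5349 in Huh7 and from 5182 to 5215 in HCCLM3. Not every library correlated best with its own number.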
